A study of Homo sapiens with 6 samples.

Results

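From the 58735 genes of the deposited tables, 10 genes of the mTOR pathway were followed by gene symbol: *MTOR*, its partners *RPTOR*, *RICTOR*, *AKT1S1* and *DEPTOR*, the stress-induced inhibitor *DDIT4*, the sestrins *SESN1* and *SESN3*, and the Rag GTPases *RRAGC* and *RRAGD*. RNA was sequenced from H2452, an established human pleural mesothelioma cell line, in 3 libraries of cells that carried a scrambled guide RNA (sgCtrl, labelled WT) and 3 of cells that carried a guide against *NF2* (sgNF2-1, labelled *NF2* knockout). Both groups had been transduced with a lentivirus that drives Cas9 and mCherry from one vector, sorted on mCherry and grown in RPMI-1640 with serum, so that sgNF2-1 is a sorted pool made with a single guide and not a clone. Nothing in the labels says that the 3 libraries of a group came from separate cultures, and the methods of the study say only in general that its replicates were biological. The p-values therefore measure the spread between these libraries, which may be technical. In bulk RNA, fewer cells expressing a gene and less RNA per cell cannot be told apart.

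The mTOR kinase works in 2 complexes. In mTORC1 it is held by Raptor, the product of *RPTOR*, and in mTORC2 by Rictor, the product of *RICTOR*. Amino acids bring mTORC1 to the lysosome through Rag GTPases, in which RagA or RagB pairs with RagC or RagD, and sestrins, PRAS40 (*AKT1S1*), *DEPTOR* and REDD1 (*DDIT4*) restrain it. Merlin, the *NF2* product, is known to restrain mTORC1. Most of this control acts on proteins, by binding and phosphorylation, which RNA levels do not report.

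The guide is printed because it defines the comparison. Its 20 bases, in lower case, are followed by the PAM in capitals as read from the *NF2* transcript.

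*NF2* guide of sgNF2-1: cgagatggagttcaattgcgAGG

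The guide matched exon 1 of *NF2* (transcript NF2-201) at chr22:29604091-29604110 on the plus strand of hg38, and all 11 *NF2* transcripts of GENCODE release 29 held it without mismatch. Next to an NGG in the transcripts of the 10 mTOR pathway genes, the closest sites differed from it at 7 or more of the 20 bases. *NF2* had 1162, 1197 and 1025 counts in sgCtrl and 692, 802 and 590 in sgNF2-1, a log2 fold change of -0.69 ± 0.10 (SE, edgeR quasi-likelihood test, adjusted p = 7.9e-06). The groups did not overlap, and *NF2* RNA was still counted in each sgNF2-1 library.

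The libraries held 14782423 to 17416463 counts assigned to genes. All 9 mesothelial markers examined were counted in both groups, from *UPK3B* at 0.825 FPKM in sgCtrl to *KRT8* at 270.1 FPKM (fragments per kilobase and per depth), and *MSLN*, *KRT18* and *BNC1* were called higher and *WT1*, *KRT19* and *PDPN* lower in sgNF2-1 (3 and 3 of 9). *PTPRC* was at 0 in every library, and *CD3E* and *EPCAM* were near 0. *PECAM1*, an endothelial marker, averaged 0.771 FPKM in sgCtrl and 0.157 FPKM in sgNF2-1. The part of these differences in the results below was not tested.

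None of the 10 genes was called higher or lower in sgNF2-1. They were chosen with earlier results of these data known and leave out *SESN2* and *MLST8*, described below. The shares set beside those of all genes are therefore descriptions. Of the 10, 8 had enough counts to be tested, and edgeR called 0 of them at an adjusted p under 0.05, whereas 34.3% of all 14179 tested genes were called. DESeq2 and limma on log2(FPKM + 1) also called 0, with 29.4% and 28.4% of all genes called. In simulated data limma recovered 18.4% of genes changed by 0.5 on the log2 scale and edgeR 58.7%. The simulation changed few genes (edgeR tested 92 changed by 0.5 and 108 by 1), which makes the adjustment stricter. Its rates therefore need not hold for these data. At an unadjusted p under 0.05, edgeR passed 1 of the 8 (*RICTOR*, lower) against 43.4% of all genes, DESeq2 1 of 9 (*RICTOR*, lower) against 20.1%, and limma 1 of 8 (*RRAGC*, higher) against 40.4%. With a log2 fold limit of 0.5 added, edgeR passed 0 of the 8 on unadjusted p, against 20.0% of all genes, and 0 on adjusted p, against 17.7%. The log2 fold changes ran from -0.22 to 0.20, with a median of 0.06 and a median size of 0.17, beside a median size of 0.27 over all tested genes. For 7 of the 8 the 95% interval lay within 0.5 of 0 on the log2 scale, and that of *SESN1* reached -0.60.

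**Figure D1:**
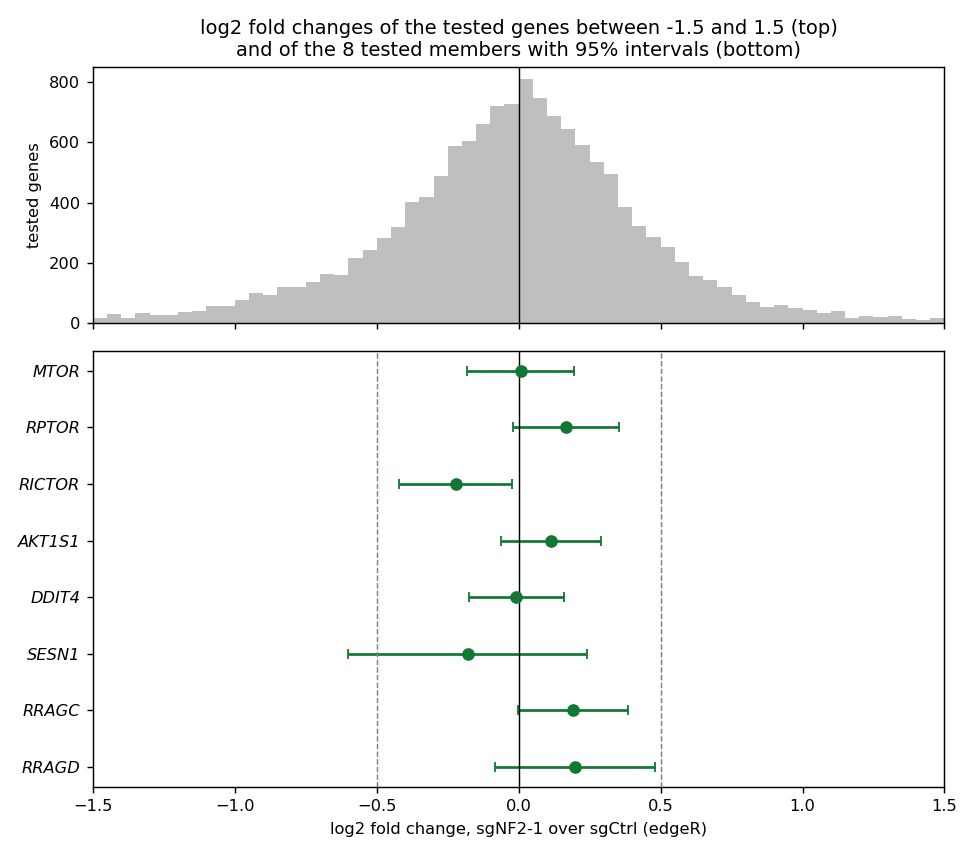
The lower panel gives the edgeR log2 fold change (sgNF2-1 over sgCtrl, 3 libraries each) of the 8 tested genes with 95% intervals, and dashed lines mark 0.5 on either side of 0. The upper panel counts tested genes by log2 fold change between -1.5 and 1.5 on the same axis. The 8 values lie between -0.22 and 0.20, and the *RICTOR* interval is the one that leaves out 0.

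Levels between genes were compared per length, in FPKM averaged over the 6 libraries. *DDIT4* stood highest at 50.4 FPKM, followed by *AKT1S1* at 31.3, *RRAGC* at 7.46, *MTOR* at 5.65, *RPTOR* at 4.84, *RICTOR* at 2.94, *RRAGD* at 2.30 and *SESN1* at 0.919. Neighbours in this order had separate ranges over the libraries, except that *MTOR* overlapped *RPTOR*, *RICTOR* overlapped *RRAGD* and *SESN3* overlapped *DEPTOR*. *SESN3* and *DEPTOR* were at the bottom, with at most 2 counts in any library. The inhibitors thus held both ends of the order, *DDIT4* and *AKT1S1* at the top and *DEPTOR* at the bottom.

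*MTOR*, the kinase shared by both complexes (chr1:11106535-11262507, minus strand, hg38), had 65.0, 81.3 and 70.7 CPM (counts scaled to library size with the TMM factor) in sgCtrl and 72.9, 74.5 and 70.8 CPM in sgNF2-1. The sgNF2-1 values lay inside the range of the sgCtrl values. Its log2 fold change was 0.01 ± 0.09 (SE, 95% interval -0.18 to 0.20, edgeR adjusted p = 0.96).

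*RPTOR*, the subunit that presents substrates to mTORC1 (chr17:80544819-80966371, plus strand), had 49.3, 49.7 and 50.5 CPM in sgCtrl and 51.3, 57.8 and 58.8 CPM in sgNF2-1. The groups did not overlap, with sgNF2-1 replicate 1 close to the controls. The log2 fold change of 0.17 ± 0.09 (SE, 95% interval -0.02 to 0.36) did not pass (edgeR adjusted p = 0.16).

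*RICTOR*, the scaffold of mTORC2 (chr5:38937919-39074408, minus strand), had 41.9, 46.7 and 47.8 CPM in sgCtrl and 39.1, 40.6 and 37.1 CPM in sgNF2-1. All 3 sgNF2-1 values lay below the controls. The log2 fold change was -0.22 ± 0.10 (SE, 95% interval -0.42 to -0.02), with an edgeR p of 0.031 before and an adjusted p of 0.080 after adjustment over all genes. *RICTOR* shares 229 exonic bases, 1.69% of its exonic length, with *OSMR* on the opposite strand, which averaged 4924 counts in sgCtrl and 4522 in sgNF2-1, and whether counting used strand is not given in the sources used here.

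The *RPTOR* to *RICTOR* ratio put the small and opposite values of these genes on one scale. In FPKM it was 1.55, 1.40 and 1.39 in sgCtrl and 1.73, 1.87 and 2.08 in sgNF2-1. The log2 ratio averaged 0.53 ± 0.09 in sgCtrl and 0.92 ± 0.14 in sgNF2-1 (mean ± SD, n = 3 each), a difference of 0.39 (exact permutation test, two-sided, p = 0.1). That p is the smallest that 3 against 3 libraries can give. In FPKM all *RPTOR* values in sgNF2-1 lay above the controls and all *RICTOR* values lay below. The separation of the ratio, its p and its sign without any single library were thereby fixed. They add nothing to the values of these genes, neither of which was called. Without any single library the difference stayed between 0.32 and 0.45.

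*AKT1S1*, which encodes the mTORC1 inhibitor and substrate PRAS40 (chr19:49869033-49878459, minus strand), had 185.1, 180.5 and 182.2 CPM in sgCtrl and 181.9, 188.6 and 222.3 CPM in sgNF2-1. One library, sgNF2-1 replicate 3, stood above the others, which overlapped. The log2 fold change was 0.11 ± 0.08 (SE, 95% interval -0.06 to 0.29, edgeR adjusted p = 0.32), and without that library it was 0.02. *AKT1S1* shares 6.83% of its exonic length with *TBC1D17* on the opposite strand.

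*DEPTOR*, which encodes an inhibitor that binds mTOR in both complexes, had 0 counts in each of the 6 libraries. A count of 0 allows up to 3 counts, which is 0.17 to 0.21 CPM or 0.061 to 0.075 FPKM in these libraries, counting error only. *DEPTOR* RNA was therefore not detectable at this depth in either group, and no fold change was computed.

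*DDIT4*, which encodes the hypoxia- and stress-induced inhibitor REDD1 (chr10:72273920-72276036, plus strand), had 112.7, 103.8 and 114.0 CPM in sgCtrl and 108.3, 106.0 and 114.4 CPM in sgNF2-1. The groups overlapped over nearly their whole range. For *DDIT4* the log2 fold change was -0.01 ± 0.08 (SE, 95% interval -0.18 to 0.16, edgeR adjusted p = 0.95). The antisense gene *DDIT4-AS1* overlaps 41.2% of the exonic length of *DDIT4* and had 0 counts throughout. Because the strand setting of the counting is not given, that 0 does not show how reads in the shared part were counted.

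*SESN1*, a sestrin (chr6:108986437-109094819, minus strand), had 90, 95 and 67 counts in sgCtrl and 97, 66 and 60 in sgNF2-1, or 4.21 to 5.79 CPM. The groups overlapped, and the log2 fold change was -0.18 ± 0.20 (SE, 95% interval -0.60 to 0.24, edgeR adjusted p = 0.53). *SESN3* (chr11:95165513-95232541, minus strand) had 1, 2 and 1 counts in sgCtrl and 1, 0 and 0 in sgNF2-1. All 6 *SESN3* values were under the 3 counts that a count of 0 allows, so no fold change was computed.

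*SESN2*, the third sestrin and a leucine sensor, was the sestrin that moved. It had 30.6, 34.5 and 31.2 CPM in sgCtrl and 119.9, 123.2 and 124.4 CPM in sgNF2-1, a log2 fold change of 1.93 ± 0.09 (SE, edgeR adjusted p = 3.0e-14). Chosen after the values were seen, and given with no test, the summed FPKM of the 3 sestrins averaged 9.79 ± 0.67 in sgCtrl and 34.2 ± 0.52 in sgNF2-1 (mean ± SD, n = 3 each). *SESN1* made up 10.0% of that sum in sgCtrl and 2.51% in sgNF2-1.

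**Figure D2:**
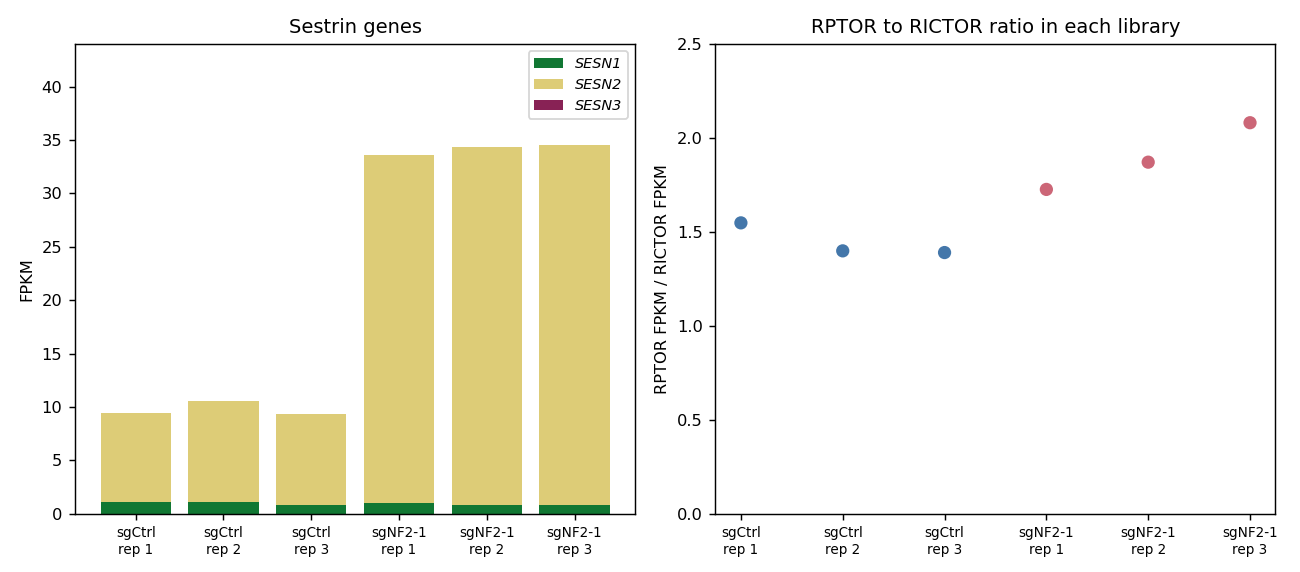
The left panel stacks the FPKM of *SESN1*, *SESN2* and *SESN3* in each of the 6 libraries, and the right panel gives the *RPTOR* to *RICTOR* ratio of FPKM in each library. *SESN2* fills most of each bar and the *SESN1* segment stays near 1 FPKM, and the ratio is 1.39 to 1.55 in sgCtrl and 1.73 to 2.08 in sgNF2-1.

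*RRAGC*, which encodes a Rag GTPase that binds Raptor (chr1:38838198-38859823, minus strand), had 39.0, 37.9 and 37.6 CPM in sgCtrl and 42.9, 44.8 and 43.0 CPM in sgNF2-1. Each sgNF2-1 library lay above each control. The log2 fold change was 0.19 ± 0.09 (SE, 95% interval -0.0028 to 0.39), with an edgeR p of 0.053 and an adjusted p of 0.12. On the FPKM scale the difference was 0.16 ± 0.06 (SE, limma adjusted p = 0.087), also short of the threshold. *RRAGC* shares 22.9% of its exonic length with *AL139260.2* on the same strand, which averaged 0 counts in both groups. That 0 does not show how reads in the shared part were counted.

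*RRAGD*, the RagC paralogue (chr6:89364636-89412270, minus strand), had 11.5, 10.5 and 12.6 CPM in sgCtrl and 12.6, 14.2 and 12.9 CPM in sgNF2-1. The groups met at 12.6 CPM, where the highest control was just below the lowest sgNF2-1 library. *RRAGD* had a log2 fold change of 0.20 ± 0.14 (SE, 95% interval -0.08 to 0.48, edgeR adjusted p = 0.28). Between the groups the mean log2 ratio of *RRAGD* to *RRAGC* differed by 0.01 (exact permutation test, two-sided, p = 1), from -1.82 to -1.55 over the sgCtrl libraries and -1.74 to -1.63 over the sgNF2-1 libraries.

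Of the 8 tested genes, 3 (*RPTOR*, *RRAGC* and *RRAGD*) had all sgNF2-1 values above the controls and 1 (*RICTOR*) had all below in CPM, beside 23.2% of all tested genes with non-overlapping groups above, 22.2% below and 45.3% in either direction. The share of these genes was near that background. In the deposited FPKM the *RRAGD* groups overlapped (2.35 in sgCtrl replicate 3 and 2.33 in sgNF2-1 replicate 1).

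**Figure D3:**
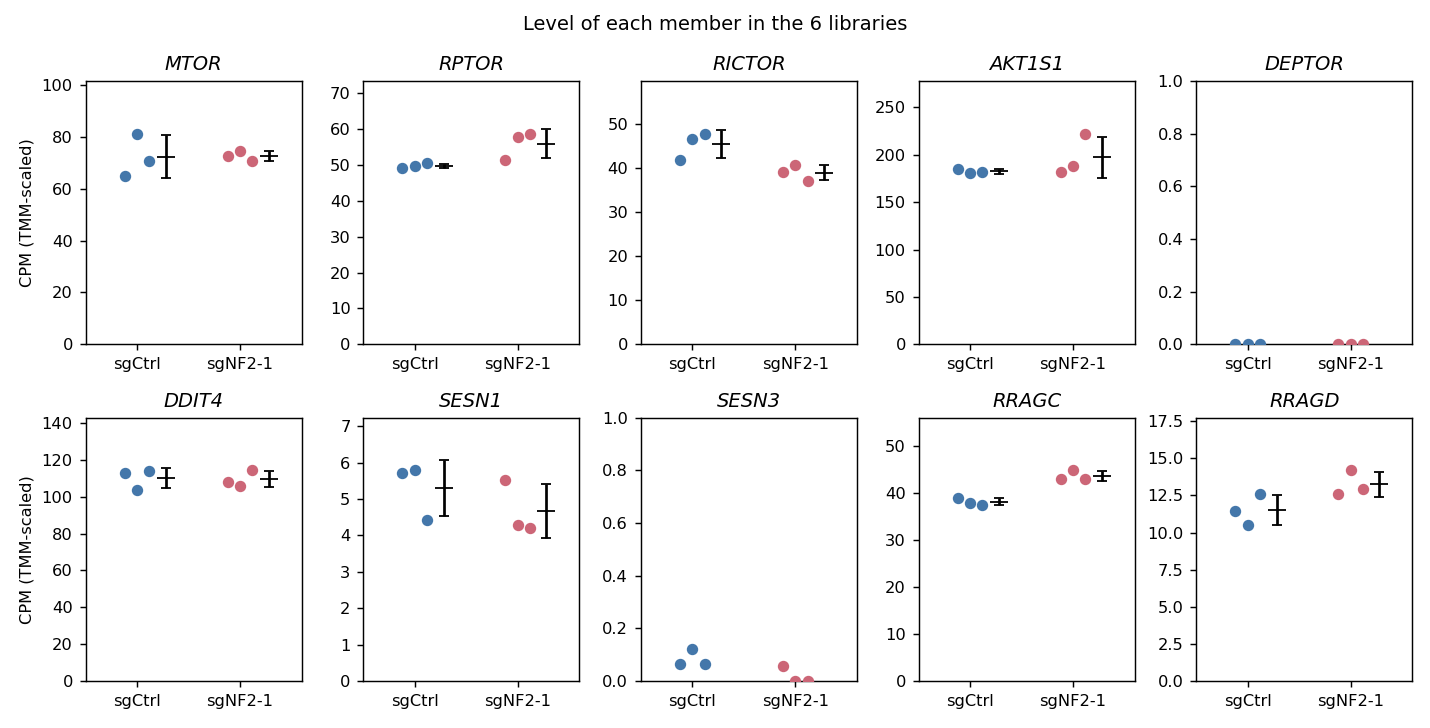
Each panel gives one gene, with points for the 6 libraries in TMM-scaled CPM on an axis that starts at 0, and a mean with SD (n = 3) for each group except in *DEPTOR* and *SESN3*. *RICTOR* lies below its controls and *RRAGC* lies above them by small steps, *MTOR* and *DDIT4* overlap, and *DEPTOR* stays at 0.

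The Rag partners were not called either. *RRAGA*, the partner of RagC or RagD, averaged 86.5 CPM in sgCtrl and 77.5 CPM in sgNF2-1 (log2 fold change -0.16 ± 0.08, SE, edgeR adjusted p = 0.15), and *RRAGB* had a log2 fold change of -0.29 ± 0.15 (SE, edgeR adjusted p = 0.15). Chosen after the values were seen, and given with no test, the FPKM of *RRAGC* plus *RRAGD* per FPKM of *RRAGA* plus *RRAGB* was 0.156 to 0.175 in sgCtrl and 0.202 to 0.215 in sgNF2-1. In FPKM all *RRAGC* values in sgNF2-1 lay above the controls and all *RRAGA* values below. The separation of this ratio follows largely from those genes, neither of which was called.

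Some genes around these 10 in the pathway were called, and the share differed between lists. In lists made by role, 83 other genes were tested, of which 29 rose and 10 fell (edgeR, adjusted p under 0.05), that is 47.0% called beside 34.3% of all genes (17.7% higher and 16.6% lower). Their median log2 fold change was 0.13, beside -0.0025 over all genes. The lists were chosen with earlier results of these data known, so these values are descriptions. With the genes followed here counted in, the share called was 18.2% in complex subunits, 16.7% in the Rag list and 28.6% in sensors. Those shares lie below the 34.3% of all genes. It was 41.2% in inputs, 44.4% in transcription factors, 50% each in the GATOR and TSC lists and 76.5% in outputs. Without sgNF2-1 replicate 1 the number that fell was 6. With at least 10 counts required in every library, 26 rose and 10 fell.

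Among complex subunits and assembly factors, 2 of 11 rose, and 4 of the 11 are described above. *MLST8*, the subunit shared by both complexes, went from 88.9, 89.0 and 99.3 CPM to 131.4, 131.6 and 148.2 CPM, a log2 fold change of 0.57 ± 0.08 (SE, edgeR adjusted p = 1.1e-05). *PRR5*, an mTORC2 subunit at low counts, rose from 1.01 to 2.42 CPM, and without sgCtrl replicate 2 or sgNF2-1 replicate 2 the list had 1 call. *MLST8* was thus the core subunit whose RNA rose while *MTOR*, *RPTOR* and *RICTOR* were not called.

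In the Rag, Ragulator and *RHEB* list 1 of 12 rose (*LAMTOR1*, log2 fold change 0.28) and 1 fell (*LAMTOR5*, -0.28), both named after their values were seen. *LAMTOR1* was not called without sgCtrl replicate 2 or sgNF2-1 replicate 3, and *LAMTOR5* was not called without sgNF2-1 replicate 1 or 2. Neither was called by limma on FPKM (adjusted p = 0.059 for *LAMTOR1* and 0.070 for *LAMTOR5*).

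In the GATOR and KICSTOR list, which relays amino acid supply to the Rag GTPases, 5 of 12 rose and 1 fell. *MIOS*, a GATOR2 subunit, rose by 0.80 ± 0.11 and *KPTN* of KICSTOR by 0.65 ± 0.22 (log2, SE). *KPTN* had 4.66, 6.48 and 9.69 CPM in the sgNF2-1 libraries and 4.28 to 4.44 CPM in sgCtrl, and limma on FPKM did not call it (adjusted p = 0.11). *NPRL3*, *SEH1L* and *WDR59* also rose and *SEC13* fell, named after their values were seen. Of these, limma on FPKM did not call *SEH1L* (adjusted p = 0.059) or *WDR59* (adjusted p = 0.053). The number that rose was 2 without sgCtrl replicate 2 and 3 without sgCtrl replicate 3, sgNF2-1 replicate 1 or sgNF2-1 replicate 3.

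Among sensors and the folliculin complex, *SESN2* rose and *FNIP2*, a folliculin partner, fell (log2 fold change -0.81 ± 0.22, SE), which left 5 of 7 uncalled, *SESN1* among them. Among the TSC complex and stress-induced inhibitors 3 of 6 rose. *TRIB3*, a stress-induced pseudokinase that binds AKT, rose from 182.7 to 673.2 CPM (log2 fold change 1.88 ± 0.09, SE), *DDIT4L*, the *DDIT4* paralogue, rose from 0.611 to 1.68 CPM, and *TSC2*, named after its value was seen, rose by 0.34. *DDIT4L* had enough counts for testing only through its sgNF2-1 libraries, so it could only be called higher. With at least 10 counts required in every library, 2 of this list rose. *DDIT4* in the same list had a log2 fold change of -0.01.

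Among growth factor and energy inputs 5 of 17 rose and 2 fell. *PRKAA2*, an AMPK catalytic subunit at 0.385 CPM in sgCtrl, rose by 2.19 ± 0.46, *IRS2* by 0.60 ± 0.12 and *PRKAB1* by 0.53 ± 0.10 (log2, SE), and *PIK3R1* had a log2 fold change of -0.57 ± 0.17 (SE), which limma on FPKM did not call (adjusted p = 0.13). *AKT1* and *PRKAG2* also rose, named after their values were seen. *PRKAA2* had enough counts for testing only through its sgNF2-1 libraries, so it could only be called higher. With at least 10 counts required in every library, 4 inputs rose. The number that fell was 1 without sgCtrl replicate 2 and 0 without sgNF2-1 replicate 1.

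Among substrates and outputs 8 of 17 rose and 5 fell. *EIF4EBP1*, the translation repressor that mTORC1 phosphorylates, rose from 261.8 to 626.9 CPM (log2 fold change 1.26 ± 0.10, SE), and its paralogue *EIF4EBP2* fell from 89.0 to 55.6 CPM (-0.68 ± 0.09, SE). *GRB10*, an mTORC1 substrate, rose by 0.92 ± 0.09, *MITF*, at under 1 CPM in sgCtrl, rose by 1.80 ± 0.43, and *TFEB*, a lysosomal transcription factor, had a log2 fold change of -0.65 ± 0.15 (SE). *MITF* had enough counts for testing only through its sgNF2-1 libraries, so it could only be called higher. With at least 10 counts required in every library, 7 outputs rose. *EIF4E*, *PDCD4* and *LPIN1* also fell, named after their values were seen, and the number that fell was 3 without sgCtrl replicate 1 or sgNF2-1 replicate 2. Of these genes, *EIF4E* was not called by limma on FPKM (adjusted p = 0.12).

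Among transcription factors known to act on genes of this set 4 of 9 rose. *MYC* rose by 1.07 ± 0.08, *DDIT3* by 0.95 ± 0.10 and *ATF4* by 0.56 ± 0.09 (log2, SE), and *CEBPB*, named after its value was seen, rose by 0.30. *ATF4* is known to act on *DDIT4* and *SESN2*, and of this pair *SESN2* rose.

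**Figure D4:**
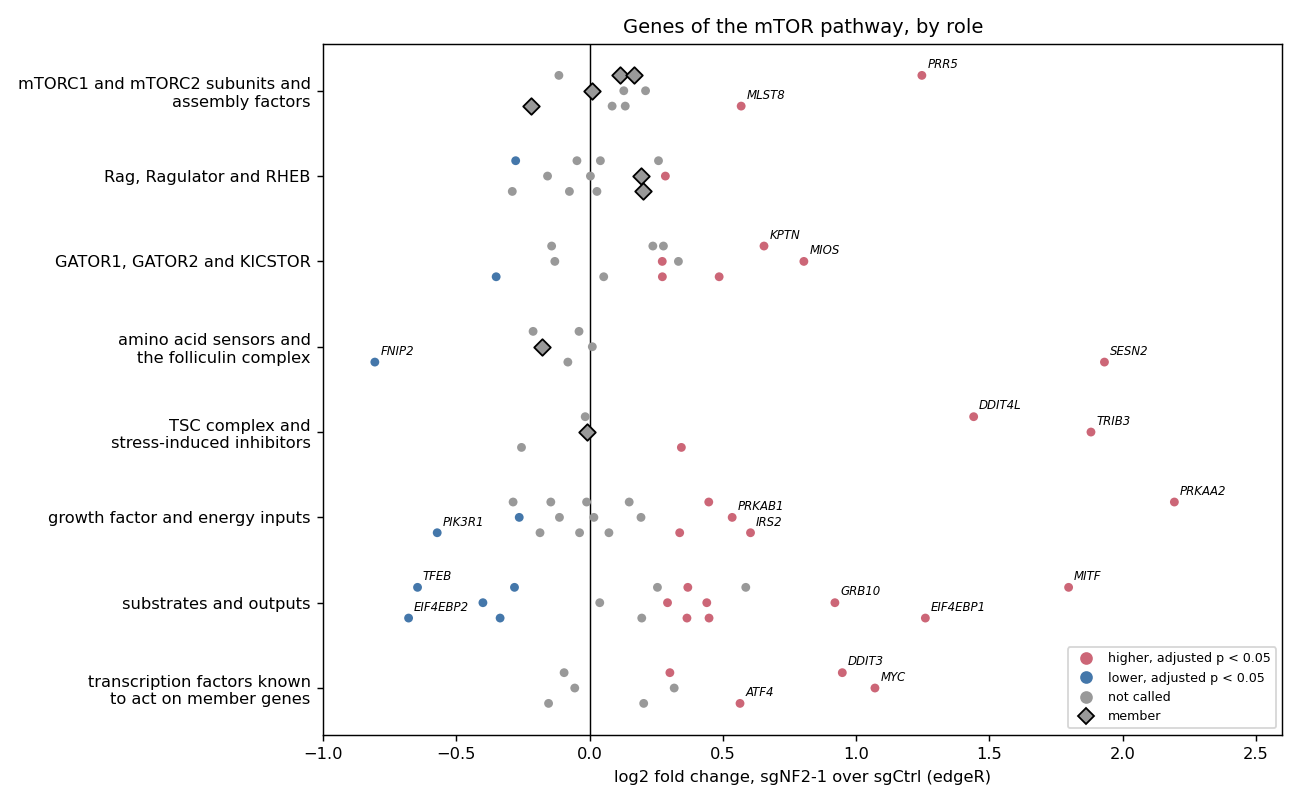
Each row is a list of mTOR pathway genes by role and each point a tested gene at its edgeR log2 fold change, coloured by call, with names for calls beyond 0.5 and diamonds for the genes followed here. The diamonds lie between -0.22 and 0.20 and are grey, while *SESN2*, *TRIB3*, *EIF4EBP1* and *MLST8* lie to the right.

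Promoter sequence was in hand for 7 of the 10 genes (RefSeq, GRCh38.p14), the 250 bases before each start, and *AKT1S1*, *DEPTOR* and *RRAGD* were not matched. The E-box CACGTG, which *MYC* and *TFEB* family factors bind, occurred in 1 of the 7, *RRAGC*, and in 6.34% of all 35116 windows, searched on both strands. The longer CLEAR element, which holds an E-box, was in none of the 7 and in 0.31% of all windows, TGATGNAAN (an *ATF4* composite element) in none and 3.13%, and GGAATG (TEAD) in none and 11.9%. The core TGATG, which TGATGNAAN holds, was in 2 (*RICTOR* and *SESN3*) and in 28.8% of all windows. Among genes of such factors *MYC*, *MITF* and *TFE3* rose and *TFEB* fell, while *RRAGC* was not called. Averaged over the 6 libraries, *MITF* was at only 0.155 FPKM, *TFE3*, named after its value was seen, at 58.0 and *TFEB* at 1.93. For this reason the stretch of the *RRAGC* window outside the annotated gene is printed. It is chr1:38859824-38860022 on the minus strand, 199 bases, with the E-box in capitals.

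*RRAGC* promoter: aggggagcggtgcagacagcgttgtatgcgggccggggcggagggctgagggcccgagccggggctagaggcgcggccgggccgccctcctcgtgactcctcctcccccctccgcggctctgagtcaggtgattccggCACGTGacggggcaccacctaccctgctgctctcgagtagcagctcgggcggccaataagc

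The E-box lay 55 bases before the annotated start. A match in this window is a description and not a binding site.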

How the data were processed

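RNA-seq libraries of H2452 cells (3 sgCtrl, 3 sgNF2-1) were grouped by their titles. For each library the authors gave a column of unnormalized counts and a column of FPKM. The submitters' processing notes name HISAT2, StringTie 1.3.3b, featureCounts 1.5.0-p3 and hg38, and the strand setting is not given in the sources used here. The deposited FPKM are counts scaled by gene length and by a depth 1.03 to 1.08 times the count total. All 58735 gene identifiers were in GENCODE release 29.

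Counts were tested in R 4.3.3 with edgeR 4.0.16 (TMM, filterByExpr with minimum count 10 and total 15, quasi-likelihood test, group only, Benjamini-Hochberg over 14179 genes), with a call at an adjusted p under 0.05. FPKM were tested with limma 3.58.1 on log2(FPKM + 1) after leaving out genes that averaged under 0.5 FPKM, and fold changes of low genes are understated. DESeq2 1.42.0 was an alternative. CPM are TMM-scaled. SE is the log2 fold change over the root of F. In simulated data for this comparison (14155 genes), edgeR recovered 91.7% of genes changed by 1 and 58.7% of those changed by 0.5 on the log2 scale, DESeq2 (58735 genes) 88.9% and 55.4%, and limma on FPKM (13217 genes) 75.5% and 18.4%. Far fewer genes were changed in the simulation than were called here (4866), so its rates need not hold for these data. Totals were 14782423 to 17416463 counts, and floors are 3 counts per library.

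The genes followed and the role lists were chosen with earlier results of these data known. Named were all 10, MLST8, SESN2, RRAGA, RRAGB, DDIT4L, NF2, and in each list up to 6 genes called with a log2 fold change beyond 0.5. Libraries of one group differed beyond sampling noise (chi-square per degree of freedom 4.85 to 11.5), so none was merged. Some items are not reported here.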

Additional observations from a re-analysis of the deposited data

How the results depend on the processing

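No alternative called any of the 10 genes. For the 8 tested genes, 12 edgeR or DESeq2 refits gave 96 results (lowest adjusted p = 0.054, RICTOR without sgCtrl replicate 1). The 9 FPKM refits with limma gave 72 results (lowest adjusted p = 0.089). Of these, 9 of the 96 and 7 of the 72 had an unadjusted p under 0.05. The sign of values near 0 turned. For MTOR the edgeR log2 fold change was -0.0195 with library totals and -3.7e-05 with at least 10 counts in every library, and -0.0641 to 0.0998 leaving out single libraries; its FPKM difference was 8.1e-05 with a pseudocount of 0.1 and -0.0637 to 0.0751 leaving out single libraries. For DDIT4 the log2 fold change was 0.0065 with no filter and -0.0500 to 0.0191 leaving out single libraries, and its FPKM difference was -0.0609 to 0.0031. The RRAGD to RRAGC difference ran from -0.0489 to 0.0855. The cause was not tested.

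With a log2 fold limit of 0.5, 16 pathway genes rose and 4 fell, on unadjusted as on adjusted p. In the Rag list 0 rose and 0 fell, in the GATOR list 2 and 0, among inputs 3 and 1, and among outputs 3 and 2. On adjusted p fewer genes can pass by construction, whereas on unadjusted p a gene can pass that was not called before. Over all genes that limit gave 2839 calls with unadjusted and 2516 with adjusted p, in place of 4866. Leaving out single libraries gave 23 to 32 higher and 6 to 9 lower pathway genes, 1 to 3 higher complex subunits, 0 to 1 higher and 0 to 1 lower in the Rag list, 2 to 6 higher in the GATOR list, 0 to 2 lower inputs and 3 to 5 lower outputs.

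Same-numbered libraries did not deviate together (correlations -0.038, 0.071 and 0.059), so the numbers were not taken as pairs. With the replicate number as a block, edgeR called 2698 genes higher and 2501 lower, 31 and 10 pathway genes, and 0 of the 10 genes; the RPTOR to RICTOR difference, which is 0.39 in either fit by arithmetic, had an exact sign-flip permutation p = 0.25, the smallest that 3 pairs allow. The sign-flip p was also fixed by the separate groups of RPTOR and RICTOR. SESN3 to SESN1 gave no ratio because of zeros. SESN3 and DEPTOR had too few counts to be tested.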
